A study of Rattus norvegicus with 24 samples.

Results

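The ipsilateral thalamus of 6 rats with traumatic brain injury (TBI) was compared with that of 6 sham-operated rats, which is 12 of the 24 messenger RNA libraries of the series. The libraries were chosen by their labels, as the thalamus libraries of the TBI group and of the control group. The animals were adult male Sprague-Dawley rats killed 3 months after surgery. TBI was a lateral fluid-percussion injury, in which a pressure pulse is delivered to the dura through an opening in the skull over the left parietal cortex. Sham-operated rats had the same anaesthesia and craniectomy without the impact, so both groups carried the opening in the skull. The TBI rats were picked for sequencing by a rim of high T2 signal around the cortical lesion on MRI, so they stand for animals with that rim and not for all injured rats. The thalamus was dissected from a 3-mm coronal slice, and RNA from several pieces was pooled into 1 library per rat. Values are normalized counts, in which the fragments of a library were scaled by 1 factor, and depth ran from 30568927 to 54608922 fragments over the 12 libraries.

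The thalamus lies away from the cortical impact but is joined to it by axons in both directions: relay neurons send glutamatergic axons to the cortex, cortical neurons project back, and GABAergic neurons of the reticular nucleus inhibit the relay cells. When cortical targets are lost, relay neurons can shrink or die over weeks, and microglia and astrocytes gather around them. Microglia, the resident macrophages of the brain, change from a surveying state to one rich in lysosomes and lipid-handling proteins when they clear debris, and astrocytes respond with intermediate filaments and secreted proteins.

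The libraries held thalamic tissue. Tcf7l2, a transcription factor of thalamic relay neurons, had a normalized count of 10079.7 to 15813 in the 12 thalamus libraries, against 185 to 339 in the 12 cortex libraries of the same rats. Gbx2, another thalamic factor, had 617 to 1085 against at most 5.82. The cortical factors Neurod6 and Tbr1 had at most 86.4 and 131 in the thalamus, against at least 1625 and 3303 in the cortex. Of the variance across the 12 libraries, 37.4% lay on a component that separated all TBI from all sham-operated rats, and 23.1% on a second that set TBI rat 45 and sham rats 34 and 50 apart. Those 3 libraries carried choroid plexus transcripts: the summed normalized count of 13 choroid plexus genes was 1019 to 283871 in TBI rats against 824 to 115717 in sham-operated rats, with medians of 1917 and 1534, and 0 of the 13 were called higher, 4 without these 3 libraries. Counts of called list members that moved by over 1.5 times without these 3 libraries are given beside the list.

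The comparison asked which genes were higher or lower in the thalamus of TBI rats. limma was fitted on log2(normalized count + 1) at 15564 named loci with a mean of at least 10. A gene was called at a Benjamini-Hochberg adjusted p under 0.05. The mean was taken over all 12 libraries, so a gene under 10 in sham-operated rats was tested only through its TBI values. Such genes, among them Clec7a, Itgax, Il1b, Ccl2, Ccl3, Cd8b and Ciita, had a higher TBI mean by that filter. Their calls add no support to their lists. Log2 fold changes written with ± carry their standard error, from 6 rats in each group. Of these loci 14.5% were called higher (2259) and 20.9% lower (3257) in TBI rats, and 907 and 423 of them reached 1.5-fold. With TMM scaling of the fragments, another way to make libraries comparable, 2828 were called higher and 2320 lower, so the balance of directions depended on the scaling, with 45.1% of calls lower in place of 59.0%. The median log2 fold change of all loci was -0.023 with quartiles of -0.18 and 0.17, and TMM raised it by 0.052. The 6 TBI values lay above all 6 sham values at 7.46% of loci and below them at 10.7%. Gene lists were written from general knowledge, but with earlier results of these data known. They are set beside these shares as a description, and a larger share in a list is not a test of it. The groups did not overlap at any gene given below by its range unless that is said. In bulk tissue, fewer cells of a type and less RNA per cell cannot be told apart.

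By a fixed rule, the 12 largest rises and 12 largest falls were taken among genes with no overlap between groups and a mean of at least 100 in the higher group. Gpnmb, a membrane glycoprotein of lysosome-rich phagocytes, ran from 3486 to 6255 in TBI rats, with a median of 5300.5, and from 407 to 601 in sham-operated rats, with a median of 489, a 10.1-fold rise (log2 fold change 3.34 ± 0.14, limma adjusted p = 3.54e-09). Every TBI rat was several times above every sham-operated rat. Spp1, the secreted matrix protein osteopontin, ran from 1046 to 3129 in TBI rats, with a median of 1808, and from 171 to 238 in sham-operated rats, with a median of 207 (log2 fold change 3.11 ± 0.21, limma adjusted p = 2.23e-07). Cd22, a lectin that binds sialic acid and is known from B cells and from microglia, ran from 505 to 1308 in TBI rats, with a median of 869.7, and from 69.3 to 113 in sham-operated rats, with a median of 85 (log2 fold change 3.29 ± 0.19, limma adjusted p = 3.8e-08). Ms4a1, another B cell gene, was near the floor of detection at 1.79 on average in TBI rats. Serping1, the inhibitor of the first complement protease, ran from 2272 to 3371 in TBI rats, with a median of 2838, and from 269.7 to 559.6 in sham-operated rats, with a median of 342 (log2 fold change 2.98 ± 0.15, limma adjusted p = 1.74e-08). Aspg, an asparaginase induced in reactive astrocytes, ran from 114 to 159 in TBI rats, with a median of 130.1, and from 7.26 to 26.3 in sham-operated rats, with a median of 16.1 (log2 fold change 3.02 ± 0.24, limma adjusted p = 8.12e-07). The remaining rises were Clec7a, the receptor dectin-1 (5.51), Acoxl, an acyl-CoA oxidase-like gene (3.91), Olr1, the receptor for oxidised low-density lipoprotein (2.93), Fcrl2, an Fc receptor-like gene (2.90), Cd68, a lysosomal membrane protein of phagocytes (2.77), Timp1, an inhibitor of metalloproteinases (2.73), and Card14, a signalling scaffold (2.72), all as log2 fold changes called by limma.

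**Figure D1:**
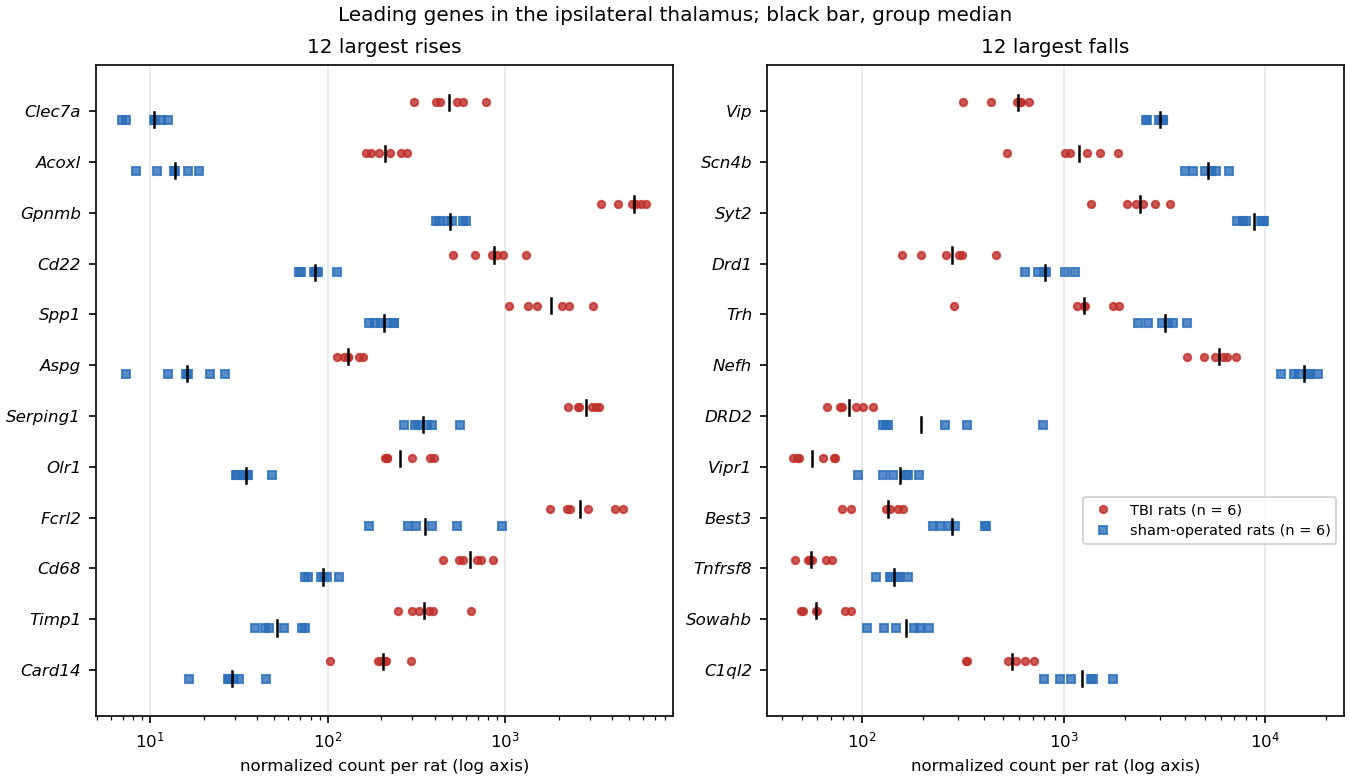
Normalized count of the 12 largest rises (left) and 12 largest falls (right) in the ipsilateral thalamus on log axes, with 1 point per rat (circles, 6 TBI; squares, 6 sham-operated) and the group median as a black bar. The groups do not overlap at any of the 24 genes, which is part of how they were chosen, and DRD2 shows 1 sham-operated rat at 786 far above the other 5.

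Clec7a and Olr1 are neighbours. In the deposited annotation, which the labels give as Rnor_5.0, Clec7a lies on chromosome 4, 211859642 to 211877596, and Olr1 on chromosome 4, 211883404 to 211905489. Clec12a, an inhibitory C-type lectin receptor of myeloid cells on chromosome 4, 211756067 to 211770832, was looked up after these values were seen. It ran from 122 to 231 in TBI rats, with a median of 174, and from 15 to 41 in sham-operated rats, with a median of 25.7 (log2 fold change 2.70 ± 0.23, limma adjusted p = 1.33e-06), again with no overlap, and a locus without a gene symbol shares its span. Clec1a, which lies between Clec12a and Clec7a on chromosome 4, 211835488 to 211858230, had means of 22.3 and 20.2 and did not pass the threshold (log2 fold change -0.11, adjusted p = 0.851 by limma). Thus 3 of the loci looked at here rose, and Clec1a, which lies among them, did not pass the test. Gabarapl1, on chromosome 4, 211937426 to 211946630, was lower by 0.20 in log2 (adjusted p = 0.016 by limma, and 0.0648 with TMM). Since these loci were picked by their values or looked up after them, the 3 rises are no result about the cluster.

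Among the largest falls, Vip, a neuropeptide, fell by 2.46 on the log2 scale. Scn4b, an auxiliary subunit of sodium channels found in fast-firing neurons, ran from 525 to 1861 in TBI rats, with a median of 1191, and from 3999 to 6563 in sham-operated rats, with a median of 5187 (log2 fold change -2.17 ± 0.24, limma adjusted p = 1.18e-05). Syt2, the calcium sensor of fast transmitter release, ran from 1371 to 3378 in TBI rats, with a median of 2374, and from 7241 to 9862 in sham-operated rats, with a median of 8736 (log2 fold change -1.90 ± 0.17, limma adjusted p = 1.96e-06). The highest TBI rat remained under the lowest sham-operated rat at each of them. Nefh, the heavy neurofilament subunit of thick axons, ran from 4081 to 7109.6 in TBI rats, with a median of 5899.6, and from 11966 to 18126 in sham-operated rats, with a median of 15587 (log2 fold change -1.43 ± 0.13, limma adjusted p = 2.05e-06). Trh, thyrotropin-releasing hormone, which is made in the reticular nucleus and hypothalamus, ran from 287 to 1873 in TBI rats, with a median of 1261, and from 2329.9 to 4080.1 in sham-operated rats, with a median of 3186 (log2 fold change -1.50 ± 0.35, limma adjusted p = 0.00454). Drd1, the D1 dopamine receptor, ran from 158 to 463 in TBI rats, with a median of 280.4, and from 644 to 1141 in sham-operated rats, with a median of 807 (log2 fold change -1.66 ± 0.22, limma adjusted p = 5.8e-05). DRD2, the D2 receptor, spelled as in the annotation, had 1 sham-operated rat, rat 26, at 786 where the others lay between 127 and 332, and its log2 fold change of -1.39 became -1.04 without that library. Dopamine receptors mark striatal neurons too, and their values are set beside striatal genes further on. The remaining falls were Vipr1, a receptor for Vip (-1.32), Best3, a bestrophin anion channel (-1.31), Tnfrsf8, a receptor of the TNF family (-1.30), Sowahb, an ankyrin repeat protein (-1.30), and C1ql2, a secreted C1q-like synaptic protein (-1.24), as log2 fold changes called by limma.

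**Figure D2:**
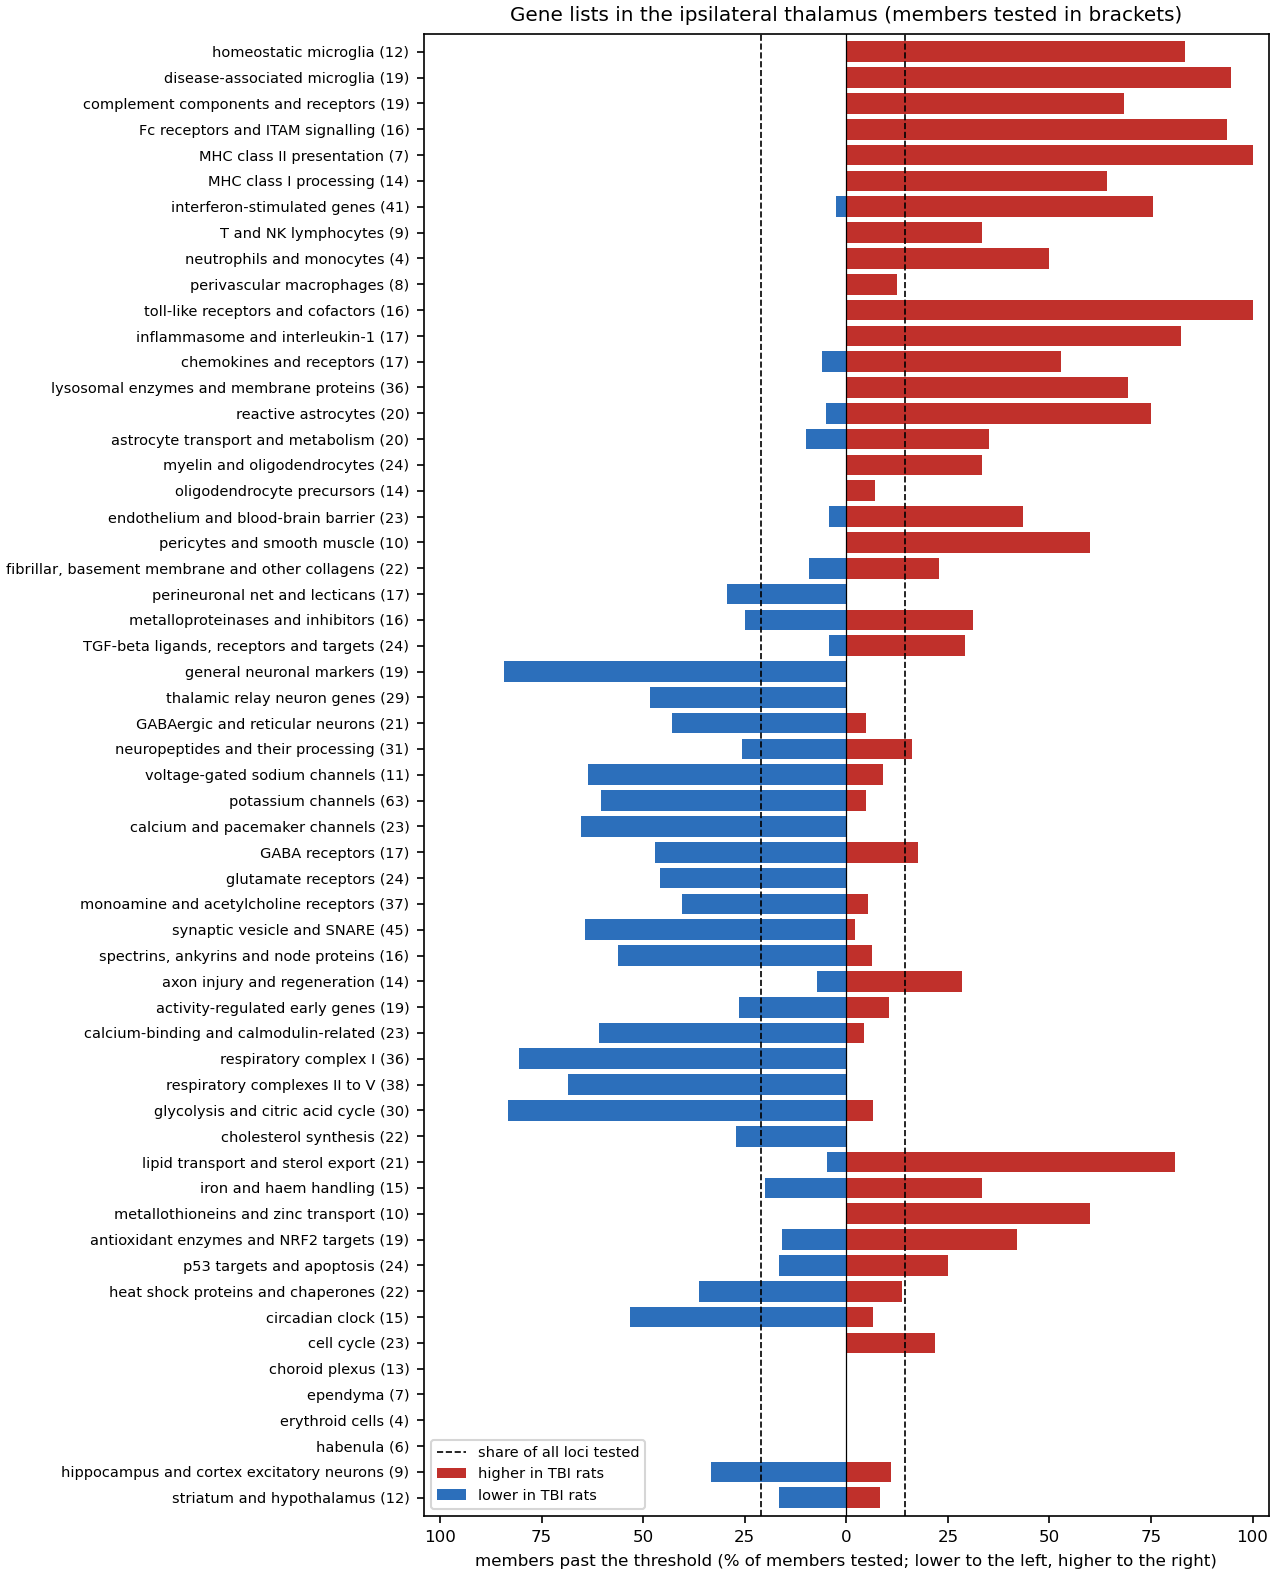
Share of the tested members of each gene list that passed the threshold, higher in TBI rats to the right and lower to the left, with the number of members tested in brackets and dashed lines at the shares of all loci (14.5% higher, 20.9% lower). Immune, lysosomal, reactive astrocyte and lipid transport lists extend to the right, and neuronal, channel, synaptic and respiratory lists to the left. Lists with under 4 members tested are not drawn.

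Microglial genes rose broadly. Of 12 tested genes of surveying (homeostatic) microglia, 10 were higher and 0 lower, with a median log2 fold change of 0.86. P2ry12, the ADP receptor that steers microglial processes, ran from 1319 to 2099 in TBI rats, with a median of 1699, and from 691 to 916 in sham-operated rats, with a median of 739 (log2 fold change 1.09 ± 0.11, limma adjusted p = 8.49e-06). Csf1r, the receptor that keeps microglia alive, ran from 9448 to 12202 in TBI rats, with a median of 10833, and from 4578 to 5912 in sham-operated rats, with a median of 5388 (log2 fold change 1.02 ± 0.076, limma adjusted p = 4.68e-07). Every TBI rat was above every sham-operated rat at both genes, and likewise at Aif1, a calcium-binding protein of microglia (1.11), Cx3cr1, the fractalkine receptor (0.94), and Itgam, an integrin of the complement receptor (0.90). Olfml3 and Selplg had positive changes of 0.64 and 0.41 that did not pass.

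Of 19 tested genes known to mark microglia around plaques and lesions, 18 were higher and 0 lower (1 lower without TBI rat 45), with a median of 1.15, and 17 of the 19 had no overlap between groups. Lgals3, a secreted galectin, ran from 908 to 1438 in TBI rats, with a median of 1096, and from 146 to 254 in sham-operated rats, with a median of 176 (log2 fold change 2.61 ± 0.15, limma adjusted p = 3.62e-08). Trem2 and Tyrobp, the lipid-sensing receptor and its signalling adaptor, rose by 1.23 and 1.43 on the log2 scale, and Axl, a receptor for dying cells, by 0.86. Itgax, an integrin known as Cd11c, rose by 2.77 from a mean of 4.78 to 37.6. Lpl, lipoprotein lipase, was the tested member that did not pass (-0.12). Cst7 and Cd52, other genes of this state, lay under the filter with means of 2.42 and 3.82 in TBI rats. The summed level of the list was 83232 to 101801 in TBI rats against 53260.5 to 59297 in sham-operated rats.

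Genes that read antibodies and carry immune tyrosine signals rose nearly as a whole, 15 of 16 tested. Fcgr2b, the inhibitory Fc receptor, ran from 523 to 883 in TBI rats, with a median of 703, and from 156 to 283 in sham-operated rats, with a median of 228 (log2 fold change 1.66 ± 0.14, limma adjusted p = 1.32e-06). Around it the activating chain Fcer1g rose by 1.27, the adaptor Blnk by 1.31, the kinases Syk and Btk by 1.15 and 1.23, the exchange factor Vav1 by 1.26, and the phosphatase Ptpn6 by 1.19. Fcgrt, the neonatal Fc receptor, did not pass (0.38), though all 16 genes were called higher with TMM and by edgeR with TMM.

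Of 19 tested complement genes 13 were higher and 0 lower. C3, the central component, ran from 5587 to 9081 in TBI rats, with a median of 6758, and from 2305 to 3059.8 in sham-operated rats, with a median of 2793 (log2 fold change 1.36 ± 0.11, limma adjusted p = 6.66e-07). The classical pathway was represented by C1qa (0.95), C1qb (1.01), C1r (1.02), C1s (1.51) and C2 (1.30), each higher with no overlap. Itgb2, a chain of the complement receptor that binds opsonised material, rose by 1.67. Properdin (Cfp) at -0.084, factor I (Cfi) at -0.27 and the receptor C5ar1 at 0.26 did not pass, and the Cfp locus is joined to Elk1 in the annotation.

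Antigen presentation rose in both classes, more in class II. Of 12 class II genes matched to a locus 7 were tested, and the rest lay under the filter. All 7 were higher, with a median log2 fold change of 1.82. Cd74, the invariant chain, ran from 3050.2 to 7751 in TBI rats, with a median of 4197, and from 857 to 1521 in sham-operated rats, with a median of 1297 (log2 fold change 1.82 ± 0.20, limma adjusted p = 1.39e-05). RT1-Da, a class II chain of the rat, ran from 844 to 1709 in TBI rats, with a median of 988, and from 189.9 to 458 in sham-operated rats, with a median of 319 (log2 fold change 1.82 ± 0.22, limma adjusted p = 2.7e-05). TBI rat 63 held the highest summed level of the list, 12042, where the next TBI rat had 7076 and the highest sham-operated rat 2489. RT1 genes are close copies of each other and reads may be split among them, so single RT1 values are uncertain. Ciita, the master regulator of class II genes, had low counts and rose from a mean of 7.01 to 19.7 (1.33). Its sham mean lay under the filter of 10, so it was tested only through its TBI values. For class I, 9 of 14 genes of peptide processing rose, led by the immunoproteasome subunits Psmb8 (1.03) and Psmb9 (0.77), with the light chain B2m at 0.73 and the transporter Tap1 at 0.69.

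Of 41 tested interferon-stimulated genes, 31 were higher and 1 lower (0 lower with TMM, without sham rat 50 or without TBI rat 45 and sham rats 34 and 50), with a median of 0.60. Irf8, a transcription factor of the macrophage lineage as well as an interferon target, ran from 843 to 1156 in TBI rats, with a median of 1042, and from 305 to 443 in sham-operated rats, with a median of 369 (log2 fold change 1.47 ± 0.11, limma adjusted p = 4.22e-07). Mx2, an antiviral GTPase, ran from 641 to 1511 in TBI rats, with a median of 938, and from 312 to 481 in sham-operated rats, with a median of 379 (log2 fold change 1.35 ± 0.20, limma adjusted p = 0.000156). The membrane proteins Ifitm3 (1.14) and Ifitm1 (1.38), the GTPase Gbp2 (0.93), the radical enzyme Rsad2 (0.91) and the secreted glycoprotein Lgals3bp (1.12) also rose. Not all of the programme moved: Irf7 (0.27), Usp18 (0.44) and Ifi27 (0.42) did not pass. Ifit2 was lower (-0.20), with an adjusted p of 0.0081 to 0.15 across the alternatives, and did not pass with TMM. Ifitm, Gbp and Oas genes have near copies, so their single values are uncertain.

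Many promoters of the interferon-stimulated genes, but not all, held the same short sequence. Promoters were taken from RefSeq on GRCr8, a later build than that of the files, from 250 bases before to 50 after the start site, and 32 of the 42 genes of the list had one. GAAANNGAAA, the core of the interferon-stimulated response element, occurred on either strand in 20 of these 32, or 62.5%, against 3.77% of 27457 rat promoters. Among the 25 members called higher with a promoter 15 held it, and among the 7 others 5 did, so the match was not confined to members that rose. Its link to the rises was not tested. Of class I processing genes, looked at after the rest, 7 of 11 held it. The stretches around the first match are shown for the 5 members with the largest rises among those called, holding a match and at a mean of at least 50 in TBI rats, on the strand of the gene, with the match in capitals. They lie at chr1:205541753-205541842 for Ifitm3 (minus strand), chr10:104127849-104127938 for Lgals3bp (minus strand), chr2:234005656-234005745 for Gbp2 (plus strand), chr6:48788218-48788307 for Rsad2 (minus strand) and chr1:205482332-205482421 for Ifitm2 (minus strand).
Ifitm3: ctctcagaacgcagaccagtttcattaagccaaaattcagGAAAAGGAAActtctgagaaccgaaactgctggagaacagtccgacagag
Lgals3bp: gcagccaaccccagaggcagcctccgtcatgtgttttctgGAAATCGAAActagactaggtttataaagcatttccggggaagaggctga
Gbp2: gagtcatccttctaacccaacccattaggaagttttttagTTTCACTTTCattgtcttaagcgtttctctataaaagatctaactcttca
Rsad2: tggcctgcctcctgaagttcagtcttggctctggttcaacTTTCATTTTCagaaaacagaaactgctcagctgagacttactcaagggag
Ifitm2: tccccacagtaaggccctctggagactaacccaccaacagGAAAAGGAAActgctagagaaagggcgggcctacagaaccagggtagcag
In Ifitm3, Ifitm2, Lgals3bp and Gbp2 the match began 44, 33, 50 and 31 bases before the start site, and in Rsad2 147 bases before it. The 8 letters GAGGAAGT, a core of the myeloid factor PU.1, occurred in 0 of 7 promoters of the homeostatic list and 0 of 15 of the disease-associated list, against 2.44% of all promoters. With so few promoters and a share that low, 0 matches says little about these lists. A match is a description of letters and not of binding.

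All 16 tested toll-like receptor genes and cofactors rose, with a median of 0.82. Tlr7, an endosomal sensor of single-stranded RNA, ran from 499 to 653 in TBI rats, with a median of 582, and from 246 to 289 in sham-operated rats, with a median of 258 (log2 fold change 1.12 ± 0.079, limma adjusted p = 2.78e-07). Its transport protein Unc93b1 rose by 1.06, and the lipopolysaccharide receptor by 0.92 for Tlr4, 1.25 for Ly96 and 1.05 for Cd14. Of 17 inflammasome and interleukin-1 genes 14 rose. Nlrp3, a danger sensor, ran from 254 to 348 in TBI rats, with a median of 319, and from 132 to 165 in sham-operated rats, with a median of 134 (log2 fold change 1.12 ± 0.10, limma adjusted p = 2.29e-06). Casp4 (1.23), Casp1 (0.86), the adaptor Pycard (1.06) and the sensor Nlrc4 (1.25) rose with it, as did the cytokine Il33 of astrocytes and oligodendrocytes (0.62). Il1b was low, with means of 25.3 and 9.29 in TBI and sham-operated rats, with an adjusted p of 0.000823 to 0.0727 across the alternatives, the highest without TBI rat 45 and sham rats 34 and 50. Il1r1, Il1rap and Il18bp did not pass.

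Among 17 chemokines and receptors, 9 were higher and 1 lower. Cxcl16, a membrane-bound chemokine that also acts as a scavenger receptor, ran from 523 to 669 in TBI rats, with a median of 551, and from 131 to 228 in sham-operated rats, with a median of 141 (log2 fold change 1.86 ± 0.14, limma adjusted p = 4.01e-07). Ccl3 and Ccl2, which draw in monocytes, rose by 3.24 and 2.01 from sham means of 4.51 and 5.61. The member against the list was Cx3cl1, fractalkine, made by neurons and read by microglia through Cx3cr1. It ran from 14251 to 19094 in TBI rats, with a median of 17224, and from 22864 to 27501 in sham-operated rats, with a median of 24851 (log2 fold change -0.55 ± 0.069, limma adjusted p = 4.02e-05), while its receptor rose.

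Markers of blood-borne cells moved less evenly. Of the lymphocyte list, 3 of 9 tested genes were higher: Cd4 (1.78), which rat microglia and macrophages also express, Cd6 (1.03), a T cell surface receptor, and Cd8b, which had at most 3 fragments in each sham library and whose TBI mean of 20.7 was at least 6.53-fold above that limit taken per library. Cd3d, Cd3e and Cd3g, the defining T cell receptor chains, had means of at most 5.25 in either group and fell under the filter, and Lck (0.22) and Zap70 (-0.13) did not pass. Of the neutrophil and monocyte list, Csf3r (1.30) and Chi3l1 (1.19) rose, the latter also an astrocyte gene, while S100a8, Mpo, Elane and Ngp lay under the filter. Of 8 perivascular macrophage genes, 1 was higher, 2 without TBI rat 45 and sham rats 34 and 50 or by edgeR with TMM: Siglec1 (0.61), with an adjusted p from 0.00295 to 0.0825 over the other settings, the highest without TBI rat 45 and sham rats 34 and 50. Mrc1 (0.43), Lyve1 (0.37) and Cd163 (0.11) did not pass. The defining genes of infiltrating lymphocytes and neutrophils were therefore at or near the filter in both groups, and the part of such cells in the rises was not tested.

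The lysosome followed. Of 36 tested lysosomal enzymes and membrane proteins 25 were higher and 0 lower (1 lower without TBI rat 52 or sham rat 34), with a median of 0.44. Npc2, which hands cholesterol out of the lysosome, ran from 12055 to 15803 in TBI rats, with a median of 14264, and from 4262 to 5481 in sham-operated rats, with a median of 5098 (log2 fold change 1.505 ± 0.083, limma adjusted p = 2.45e-08). Ctsd, an aspartic protease, ran from 26485 to 32951 in TBI rats, with a median of 31534, and from 15994 to 19830.4 in sham-operated rats, with a median of 18080.2 (log2 fold change 0.75 ± 0.066, limma adjusted p = 1.92e-06). Grn, progranulin (1.02), Laptm5, a membrane protein of blood-derived lineages (1.13), Ctss (0.98) and Acp5, an acid phosphatase of macrophages and osteoclasts (1.85), rose as well. The enzymes Ppt1 (-0.012) and Neu1 (-0.17) did not pass, and neither did Tfeb, the factor that drives lysosomal genes (0.19). TCACGTGA, the core of the element that this factor binds, occurred in 2 of 27 promoters of the list, Ctsd and Lamp1, or 7.41%, against 0.867% of all promoters. Both are shown, as members called higher that hold a match and have a mean of at least 50 in TBI rats, and both rose with no overlap. They are given on the strand of the gene with the match in capitals. They lie at chr1:206968785-206968872 for Ctsd and chr16:83075082-83075169 for Lamp1, both on the minus strand of GRCr8 from RefSeq.
Ctsd: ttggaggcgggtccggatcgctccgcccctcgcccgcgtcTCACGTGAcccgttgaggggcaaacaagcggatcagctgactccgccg
Lamp1: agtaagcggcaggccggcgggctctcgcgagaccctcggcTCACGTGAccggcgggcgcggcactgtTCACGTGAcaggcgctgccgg
Lamp1 holds 2 matches in this stretch and Ctsd 1, with the first match 66 and 11 bases before the start site.

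Sterol and lipid carriers rose alongside, 17 of 21 tested with a median of 0.52. Abca1, which loads cholesterol onto lipoproteins, ran from 4670.4 to 6827 in TBI rats, with a median of 5305, and from 2013 to 2797 in sham-operated rats, with a median of 2250.4 (log2 fold change 1.25 ± 0.11, limma adjusted p = 1.37e-06). Apoe, the main lipoprotein of brain, ran from 118358 to 183616 in TBI rats, with a median of 162322, and from 77167 to 101619 in sham-operated rats, with a median of 95636 (log2 fold change 0.74 ± 0.11, limma adjusted p = 0.000217). Clu (0.94), Apoc1 (0.93), Fabp7, a fatty acid carrier of astrocytes (1.06), and the oxysterol enzyme Ch25h (1.10) were higher too. Abca7 was lower (-0.37), against the rest of the list, and 2 members were lower without TBI rat 45. Cholesterol synthesis did not rise: 0 of 22 genes were higher and 6 lower, or 27.3% lower against 20.9% of all loci. Without TBI rat 45 and sham rats 34 and 50, 3 were lower. Stard4 (-0.45) and Fdps (-0.29) were among the 6.

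Reactive astrocyte genes rose strongly. Of 20 tested, 15 were higher with no overlap and 1 lower, with a median of 1.31. Gfap, the intermediate filament of astrocytes, ran from 94239 to 116667 in TBI rats, with a median of 102135, and from 16342 to 27221 in sham-operated rats, with a median of 22561 (log2 fold change 2.26 ± 0.12, limma adjusted p = 2.33e-08). Lcn2, the secreted iron-siderophore carrier lipocalin 2, ran from 100.5 to 281 in TBI rats, with a median of 167, and from 20.7 to 77.6 in sham-operated rats, with a median of 41.1 (log2 fold change 2.00 ± 0.31, limma adjusted p = 0.000241). Hspb1, a small heat shock protein (2.10), Cp, the ferroxidase ceruloplasmin (1.98), Socs3, a brake on cytokine signalling (1.92), Cd44, a hyaluronan receptor (1.80), and Vim (1.28) rose with them. Serpina3n, a secreted protease inhibitor of reactive astrocytes, had 41.9 ± 8.91 in TBI rats against 32.1 ± 6.07 in sham-operated rats (SD, n = 6 each) and did not pass (0.38). Tnc, tenascin C, went the other way (-0.49, adjusted p = 0.00148 by limma).

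The working genes of astrocytes were split, with 7 of 20 higher and 2 lower. Aqp4, the water channel of astrocyte endfeet, ran from 57304 to 81700.1 in TBI rats, with a median of 67211, and from 29752 to 34416 in sham-operated rats, with a median of 32565 (log2 fold change 1.07 ± 0.079, limma adjusted p = 4.41e-07). S100b (0.54) and the gap junction gene Gja1 (0.42) rose less. Kcnj10, the potassium channel that buffers extracellular potassium (-0.23), fell. The glutamate transporters Slc1a2 (-0.10) and Slc1a3 (0.071) and glutamine synthetase Glul (0.11) did not pass.

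Of 24 myelin genes of oligodendrocytes 8 were higher and 0 lower (1 lower without TBI rat 63), with a median of 0.14: Tf, transferrin, rose by 0.60, Aspa, which splits N-acetylaspartate, by 0.40, and Opalin by 0.40. The myelin genes Mobp (-0.15), Mag (0.10) and Cnp (0.055) did not pass, and the summed list overlapped between groups. Of 14 precursor genes 1 was higher, Cspg4 (0.31), which pericytes also express, and 2 to 4 were with TMM, without TBI rats 22, 45 or 56 or sham rats 26 or 32, or without the 3 libraries with choroid plexus. Pdgfra (0.084) and Olig1 (0.0021) lay near 0.

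**Figure D3:**
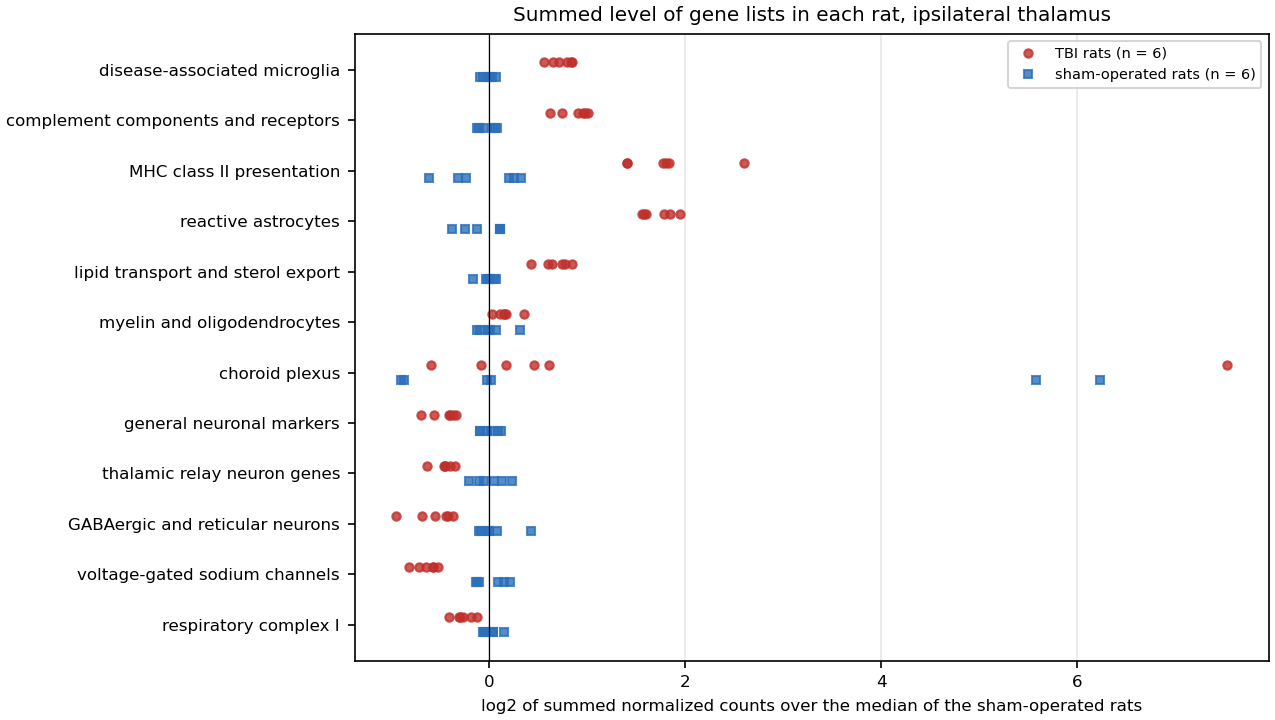
Summed normalized count of 12 gene lists in each rat, as log2 of the ratio to the median of the 6 sham-operated rats (circles, 6 TBI; squares, 6 sham-operated). Lists of microglia, complement, class II presentation, reactive astrocytes and lipid transport lie to the right of every sham-operated rat, neuronal lists and complex I to the left, myelin overlaps, and 1 TBI and 2 sham-operated rats stand far out in choroid plexus genes.

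At the vessel wall, 10 of 23 endothelial and barrier genes were higher and 1 lower. Icam1, a leukocyte adhesion receptor, ran from 264 to 492 in TBI rats, with a median of 307, and from 131 to 200.3 in sham-operated rats, with a median of 169 (log2 fold change 0.96 ± 0.16, limma adjusted p = 0.000446). Vcam1 (0.41), Pecam1 (0.36) and Emcn (0.48) rose too, and Cldn5, the tight junction protein of brain endothelium (0.16), Slc2a1 (0.13) and Mfsd2a (-0.15) did not pass. Plvap, which forms the diaphragms of leaky vessels, was the member that fell. It ran from 364 to 489 in TBI rats, with a median of 412, and from 565 to 813 in sham-operated rats, with a median of 658 (log2 fold change -0.69 ± 0.094, limma adjusted p = 8.26e-05). Of 10 mural cell genes 6 were higher, among them the pericyte genes Rgs5 (0.34) and Pdgfrb (0.37). That count went down to 3 without TBI rats 24 or 63 or sham rats 38 or 50, and to 2 without sham rats 26 or 55. The summed level of the erythroid list was 3843 to 9136 in TBI rats against 4782 to 7278 in sham-operated rats, and 0 of its 4 loci passed, but 2 were lower without TBI rat 45, alone or together with sham rats 34 and 50.

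Of 22 collagens of the matrix 5 were higher and 2 lower, or 22.7% and 9.09% against 14.5% and 20.9% of all loci. Without TBI rat 45 and sham rats 34 and 50, the libraries with choroid plexus, 9 were higher. Col16a1 (0.77), Col11a1 (0.65) and Col5a2 (0.53) rose. Col1a1 (0.47) and Col3a1 (0.61), the fibrillar collagens of fibroblasts, did not pass. TBI rat 45 held the highest summed level of the list, 43375, against 16121 in the next TBI rat. Col20a1 (-0.63) and Col19a1 (-0.52), which neurons express, fell. In the metalloproteinase list 5 of 16 were higher and 4 lower, 3 higher without sham rats 32, 38 or 55. The main counts are 31.25% and 25%, against 14.5% and 20.9% of all loci. Beside Timp1, Mmp19 ran from 201 to 357 in TBI rats, with a median of 271, and from 64.3 to 88.1 in sham-operated rats, with a median of 72.7 (log2 fold change 1.85 ± 0.14, limma adjusted p = 4.22e-07), and Timp4 fell by 0.40 on the log2 scale. Among TGF-beta genes 7 of 24 rose and 1 fell, 4 rising without TBI rat 63 or sham rats 32 or 50 and 2 falling without TBI rat 45, alone or with sham rats 34 and 50. The receptor Tgfbr1 ran from 2504 to 4086 in TBI rats, with a median of 2905, and from 1298 to 1819.5 in sham-operated rats, with a median of 1603 (log2 fold change 0.99 ± 0.12, limma adjusted p = 2.93e-05), Tgfbr2 rose by 0.64 and the target Id3 by 0.63, and Inhbb, an inhibin subunit, was lower (-0.40).

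Perineuronal nets are the lattice of aggrecan and link proteins around fast-firing neurons. Among their genes, Acan and Hapln1 were lower. Acan, aggrecan, ran from 176 to 271 in TBI rats, with a median of 214, and from 414 to 515 in sham-operated rats, with a median of 481 (log2 fold change -1.12 ± 0.10, limma adjusted p = 2.23e-06). Hapln1, a link protein, ran from 162 to 212 in TBI rats, with a median of 182, and from 248 to 422 in sham-operated rats, with a median of 290.2 (log2 fold change -0.74 ± 0.13, limma adjusted p = 0.000659). No TBI rat reached the level of the lowest sham-operated rat at either gene. Of 17 genes of the list 5 were lower, or 29.4% against 20.9% of all loci, and 0 higher (5 and 1 with TMM, and 1 higher without TBI rat 52). Bcan (-0.13), Ncan (0.063) and Tnr (-0.04), which glia also make, did not pass. Hapln4, another link protein gene, had counts of 0 and was not tested, and its locus has the same span as that of Ncan.

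General neuronal markers fell. Of 19 tested, 16 were lower and 0 higher, with a median log2 fold change of -0.47, and 15 had no overlap. Neurofilaments led: below Nefh came Nefm, the medium subunit, which ran from 5929 to 7708 in TBI rats, with a median of 7044, and from 11839 to 16022 in sham-operated rats, with a median of 14165 (log2 fold change -1.02 ± 0.078, limma adjusted p = 5.53e-07). Ina (-0.76), another neurofilament subunit, Nefl (-0.68), the vesicle-fusion protein Snap25 (-0.63), the surface glycoprotein Thy1 (-0.54) and the nuclear marker Rbfox3, known as NeuN (-0.48), fell as well. Map2 (-0.061), Stmn2 (-0.12) and Celf4 (-0.035) did not pass. The summed level of the list was 316752 to 405016 in TBI rats against 480991 to 556484 in sham-operated rats.

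Genes of thalamic relay neurons were lower in 14 of 29 tested, with a median of -0.26, and 0 were higher (12 and 2 with TMM), with 1 or 2 higher without TBI rats 24 or 63 or sham rats 34 or 38. Prkcd, a protein kinase of first-order relay nuclei, ran from 18547 to 26164 in TBI rats, with a median of 21481, and from 30458 to 46532 in sham-operated rats, with a median of 36846 (log2 fold change -0.82 ± 0.10, limma adjusted p = 4.4e-05). Adarb1, an RNA editing enzyme, ran from 28014 to 38028 in TBI rats, with a median of 33782, and from 47679 to 63719.6 in sham-operated rats, with a median of 57884 (log2 fold change -0.79 ± 0.087, limma adjusted p = 1.39e-05). Kcnc2, a potassium channel for rapid firing (-0.80), Synpo2 (-0.66), Plcb4, a phospholipase of relay cells (-0.61), and the nuclear receptor Rora (-0.58) fell, with Scn4b furthest. Among transcription factors of the thalamus Lef1 fell (-0.54), while Gbx2 (0.15), Lhx9 (0.20), Lhx2 (-0.042) and Foxp2 (0.095) did not pass. Genes of midline and other nuclei, Calb2 (0.33) and Cbln4 (0.42), had positive values that did not pass. Tcf7l2 was lower by 0.23 in log2, with an adjusted p from 0.0202 to 0.118 over the other settings, and Slc17a6, the vesicular glutamate transporter of relay cells, by 0.21, with 0.0148 to 0.11.

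Of 21 GABAergic genes 9 were lower and 1 higher (8 and 3 without TBI rat 45 and sham rats 34 and 50), with a median of -0.60. Sham rat 26 held the highest summed level of this list, 59531, where the next sham-operated rat had 46972. Pvalb, a calcium buffer of reticular neurons, ran from 1318 to 3414 in TBI rats, with a median of 3017, and from 5138 to 7339 in sham-operated rats, with a median of 6160.5 (log2 fold change -1.19 ± 0.19, limma adjusted p = 0.000303). Gad1, an enzyme that makes GABA, ran from 2012 to 5815 in TBI rats, with a median of 4827, and from 6178 to 13632 in sham-operated rats, with a median of 7278 (log2 fold change -0.85 ± 0.24, limma adjusted p = 0.0134). Gad2 (-0.85) and the vesicular GABA transporter Slc32a1 (-0.91) fell alike. Cck, a peptide of both cortical and thalamic neurons, fell by 0.96. Isl1 and Six3, factors of striatal and reticular lineages, were lower by 1.04 and 0.88 with adjusted p of 0.00852 and 0.00918 by limma, which ranged up to 0.121 and 0.298 over the other settings. Sst (0.54), Calb1 (0.15) and Nos1 (0.29), other genes of GABAergic cells, had positive values that did not pass. Ecel1, an injury-induced peptidase, rose (0.73), so the genes of these cells did not all fall.

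Since the thalamus borders other structures, genes of those structures were read beside these falls. Of 9 hippocampal and cortical excitatory genes 3 were lower and 1 higher: Slc17a7, the glutamate transporter of cortex and hippocampus, ran from 2693 to 4969.5 in TBI rats, with a median of 3648, and from 4464 to 9879.9 in sham-operated rats, with a median of 7949.6 (log2 fold change -1.05 ± 0.19, limma adjusted p = 0.000642), and its groups overlapped. Wfs1 (-0.46) and Cux2 (-0.42) fell too, and Fibcd1 was higher (0.45) with an adjusted p from 0.0141 to 0.0925 over the other settings, and 0 were higher without any of 8 single libraries, TBI rats 22, 45, 52 or 56 or sham rats 32, 38, 50 or 55, or without the 3 with choroid plexus. The 3 lower members are 33.3% of the 9, against 20.9% of all loci. The summed level of that list was 8489.8 to 11023 in TBI rats against 11722 to 17649.5 in sham-operated rats. Its medians were 9745 and 15262, and most of that gap lay in Slc17a7, with the medians given above. Across the 9 tested members the middle value was -0.071 in log2, so the lower sum is no broad fall of these genes. Neurod6 (-0.06) and Tbr1 (-0.11) did not pass. Of 12 striatal and hypothalamic genes 2 were lower and 1 higher, or 16.7% and 8.33% against 20.9% and 14.5% of all loci. Without TBI rat 45 and sham rats 34 and 50, 4 were lower. The summed level of this list was 4837 to 7469 in TBI rats against 4302 to 10803 in sham-operated rats. Sham rat 26 held the highest sum, and the next sham-operated rat had 6897. DRD2 (-1.39) was highest in sham rat 26 too, at 786. Adora2a, the adenosine receptor of striatal neurons, was lower (-0.89, adjusted p from 0.000626 to 0.0963 over the other settings by limma or a count test) with Drd1, and Rgs9 (-0.85), also striatal, had a negative value that did not pass, whereas Ppp1r1b (0.20) and Rxrg (-0.092) lay near 0. The 6 habenular genes had a median of 0.67 with 0 called (1 higher without sham rat 38), and 7 ependymal genes a median of 0.12 with 0 called. Whether the pieces dissected from the groups held different amounts of these neighbours was not tested.

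Of 31 genes of neuropeptides and their processing 5 were higher and 8 lower, near the shares of all loci. Pmch, melanin-concentrating hormone of the lateral hypothalamus and zona incerta, was higher (336 against 65.5 on average, 2.26). Other hypothalamic peptides did not pass: Oxt had a log2 fold change of 1.63, Avp of 0.97 and Hcrt of 0.53. Gal, a peptide that axotomised neurons make, ran from 90.3 to 193 in TBI rats, with a median of 124, and from 37.3 to 76.4 in sham-operated rats, with a median of 55.7 (log2 fold change 1.23 ± 0.21, limma adjusted p = 0.000423). Cartpt rose by 0.84. Chga, a granule protein, fell by 0.74, and the convertase Pcsk2 by 0.41, while the convertase Pcsk1 was higher (0.51) except without TBI rat 45 and sham rats 34 and 50, where it did not pass.

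**Figure D4:**
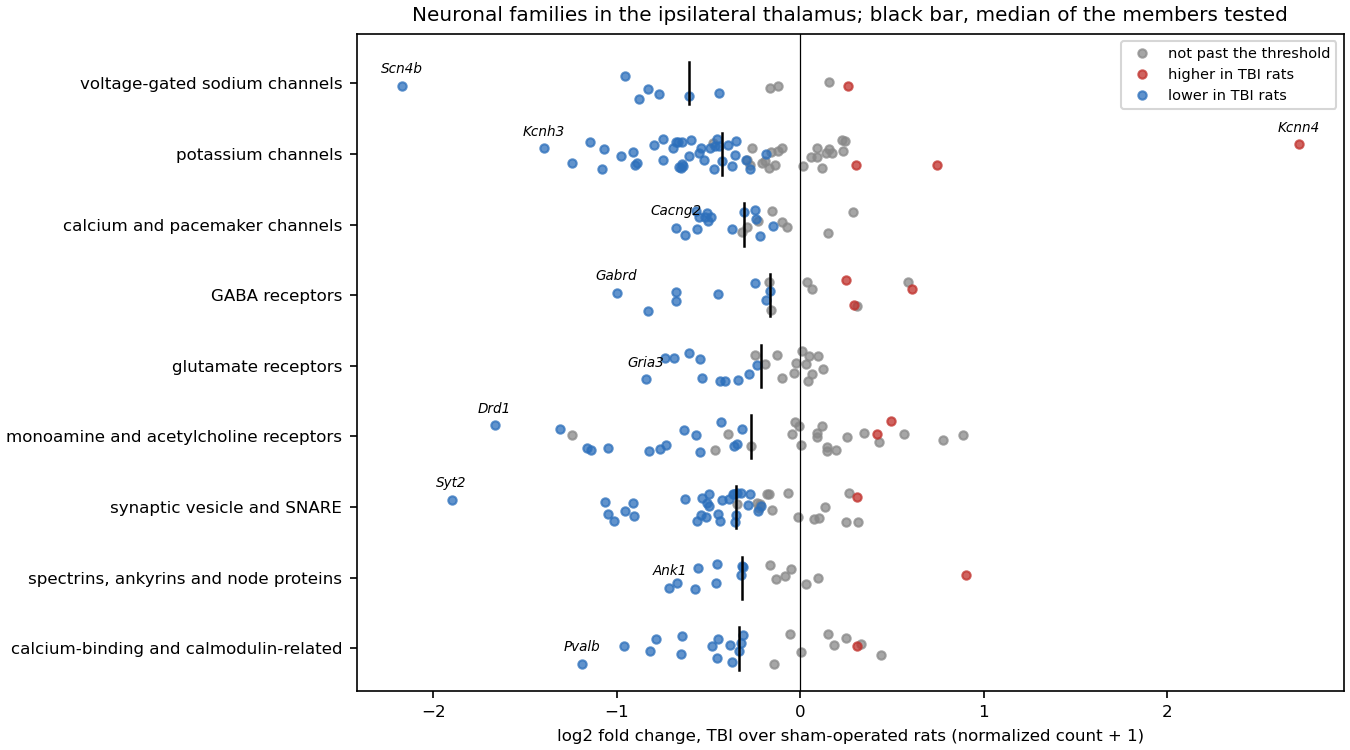
Log2 fold change of each tested member of 9 neuronal gene families in the ipsilateral thalamus, TBI over sham-operated rats, 1 point per gene, coloured by its limma call, with the median as a black bar, and with the lowest member of each family and the highest of all named. All 9 medians lie below 0, and Kcnn4, a potassium channel that rose by 2.72, stands apart from its family.

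Voltage-gated sodium channels were lower in 7 of 11 genes, with a median of -0.61. Scn1a, a pore subunit of fast-firing neurons, ran from 4873 to 7048 in TBI rats, with a median of 5759.5, and from 8219 to 13983 in sham-operated rats, with a median of 10735 (log2 fold change -0.88 ± 0.13, limma adjusted p = 0.00017). Scn8a (-0.83), the pore subunit of nodes of Ranvier, and the auxiliary subunit Scn2b (-0.44) fell with it. Scn3b, an auxiliary subunit of immature neurons, rose (0.26), and Scn3a (0.16) and Nalcn (-0.17) did not pass.

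Potassium channels were lower in 38 of 63 genes and higher in 3, or 5 with TMM or without TBI rat 45. The subunits of fast repolarisation fell together: Kcnc1 ran from 2643 to 4234 in TBI rats, with a median of 3513, and from 5730.2 to 7337 in sham-operated rats, with a median of 6266 (log2 fold change -0.89 ± 0.10, limma adjusted p = 1.41e-05). Kcna1 (-0.91), Kcna2 (-0.75) and the auxiliary subunits Kcnab2 (-0.98) and Kcnab3 (-1.24) fell too, and Kcnc4 (0.14) did not pass. Kcnq3, a gene of the M-current, fell by 0.69. Kcnn4, a calcium-activated channel of microglia and blood cells, ran from 68.1 to 196 in TBI rats, with a median of 120.0, and from 14.3 to 20.7 in sham-operated rats, with a median of 16.1 (log2 fold change 2.72 ± 0.21, limma adjusted p = 6.73e-07). Kcnk6 (0.75) and Kcna3 (0.30), the latter known from lymphocytes and microglia, were the other members called higher, and neither passed without TBI rat 45 and sham rats 34 and 50.

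Calcium and pacemaker channels were lower in 15 of 23 genes and higher in 0 (11 lower with TMM). Hcn4, a pacemaker subunit of relay neurons, ran from 1764 to 2156 in TBI rats, with a median of 2076, and from 2475 to 3659 in sham-operated rats, with a median of 2923 (log2 fold change -0.57 ± 0.092, limma adjusted p = 0.000319). Hcn2 (-0.55) fell alike. Among T-type channels, which give relay cells their bursts, Cacna1i fell (-0.31) and Cacna1h did not pass (-0.32). Cacng2, the AMPA receptor subunit stargazin, fell by 0.67.

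Receptors for fast transmitters were lower by subunit. Of 17 GABA receptor genes 8 were lower and 3 higher, 5 lower by edgeR with TMM or without TBI rat 45 and sham rats 34 and 50. Gabrd, the delta subunit of the tonic receptors of relay cells, ran from 2664 to 4206 in TBI rats, with a median of 3801, and from 6092 to 8238 in sham-operated rats, with a median of 7417 (log2 fold change -0.9997 ± 0.10, limma adjusted p = 7.98e-06). Its thalamic partner Gabra4 (-0.83) fell, as did Gabrb2 (-0.68). Gabrg1, which glia also express (0.29), and Gabrq (0.61) rose, and Gabra2 (0.25) was higher with an adjusted p from 0.00406 to 0.111 over the other settings. Of 24 glutamate receptor genes 11 were lower and 0 higher (1 higher with TMM). Gria3, an AMPA subunit whose locus is joined to an unnamed one, fell by 0.84, and the NMDA subunits Grin2a and Grin2b by 0.74 and 0.69, while Gria2 (-0.024) and Grm3 (0.0083) did not pass.

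Of 37 receptors for monoamines and acetylcholine 15 were lower and 2 higher. Adrb1, the beta-1 adrenoceptor, ran from 222 to 296 in TBI rats, with a median of 280.4, and from 471 to 687 in sham-operated rats, with a median of 532 (log2 fold change -1.05 ± 0.11, limma adjusted p = 7.5e-06). Adra1d (-1.14), the muscarinic receptor Chrm4 (-1.16), the serotonin receptor Htr2a (-0.73) and the nicotinic subunits Chrna4 (-0.57) and Chrnb2 (-0.54) fell. Adra2a (0.50) and the histamine receptor Hrh1 (0.42) rose. Chrna3 (0.57) and Chrnb4 (0.78), which mark the habenula, did not pass.

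At synapses 29 of 45 vesicle and SNARE genes were lower and 1 higher (2 higher with TMM, without TBI rat 63 or sham rat 34, or without TBI rat 45 and sham rats 34 and 50), with a median of -0.35. Vamp1, the vesicle protein that pairs with Syt2 at fast synapses, ran from 5784 to 8351 in TBI rats, with a median of 7378, and from 12875 to 16270.1 in sham-operated rats, with a median of 15398 (log2 fold change -1.07 ± 0.09, limma adjusted p = 1.27e-06). Sv2c (-1.01), Unc13c (-0.91) and Slc17a7 fell as well, while the widely used forms had values of -0.23 for Vamp2, -0.36 for Sv2a and -0.35 for Unc13a, of which Vamp2 did not pass with TMM. Syn2 (0.10) and Stx1a (0.073) did not pass, and Rab3b, whose locus is joined to Txndc12, rose (0.31). Among 16 spectrins, ankyrins and node proteins 9 were lower: Ank1 (-0.71), Epb41l3 (-0.67) and Sptbn4, a spectrin of nodes and initial segments (-0.57), fell. Of 23 calcium-binding genes 14 were lower and 1 higher, and 2 to 4 were higher with TMM or without TBI rats 22 or 63 or sham rats 34 or 38. Pcp4, a calmodulin regulator of relay neurons, fell by 0.78, Hpca, hippocalcin, by 0.96 and the kinase Camk4 by 0.64, while Hpcal4 rose (0.31).

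Of 14 genes of axon injury tested 4 were higher and 1 lower, with 2 lower without TBI rat 52 and 0 by edgeR with TMM: Atf3, a transcription factor induced by axotomy, ran from 99.8 to 145 in TBI rats, with a median of 117, and from 36.1 to 57.8 in sham-operated rats, with a median of 45.2 (log2 fold change 1.33 ± 0.14, limma adjusted p = 7.67e-06), and Gal, Ecel1 and Gadd45a (0.50) rose. Jun (-0.21), Sox11 (-0.13) and Stmn4 (-0.11) did not pass, Gap43 was lower (-0.26, but not past the threshold by edgeR), and Sprr1a lay under the filter. Of 19 activity-regulated genes 5 were lower and 2 higher, near the shares of all loci. Leaving out single libraries gave 3 to 9 lower (3 without TBI rat 24 or sham rat 50, 9 without TBI rat 52). Arc, a synaptic immediate early gene, fell by 1.24 with no overlap, and Homer1 by 0.44. Egr2 (1.67) and Fosl2 (0.47) were higher, and 0 members were higher without TBI rat 45 and sham rats 34 and 50, while Fos (0.043), Egr1 (-0.50) and Npas4 (-0.56) did not pass.

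Genes of energy metabolism were lower by small amounts. Of 36 complex I genes 29 were lower and 0 higher, with a median of -0.26, and of 38 genes of complexes II to V 26 were lower and 0 higher, with a median of -0.24. With TMM the counts were 23 and 20. Ndufb9, a complex I subunit, ran from 3889 to 5142 in TBI rats, with a median of 4655, and from 5732 to 7117 in sham-operated rats, with a median of 6030.0 (log2 fold change -0.41 ± 0.071, limma adjusted p = 0.000553). Cox5b and Cox6a1 of complex IV fell by 0.46 and 0.45 and Cycs, cytochrome c, by 0.47. Of 30 genes of glycolysis and the citric acid cycle 25 were lower and 2 higher (19 and 2 with TMM). Eno2, the neuronal enolase, fell by 0.47 and Mdh1 by 0.43, while Eno1, the form of glia and other cells, was lower by 0.18 and did not pass with TMM. Hk2, the inducible hexokinase, ran from 900.5 to 1121 in TBI rats, with a median of 988, and from 467 to 602 in sham-operated rats, with a median of 517 (log2 fold change 0.95 ± 0.076, limma adjusted p = 8.57e-07), against its list, and Suclg2, a citric acid cycle subunit of non-neuronal tissue, rose by 0.39. The falls in these lists stood beside the fall of the neuronal markers, and the part of neuron number in them was not tested.

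Metal and stress genes rose at particular members. Of 10 metallothioneins and zinc transporters 6 were higher with no overlap and 0 lower (1 lower without TBI rat 24). Mt2A ran from 671 to 866 in TBI rats, with a median of 732, and from 129 to 213 in sham-operated rats, with a median of 167 (log2 fold change 2.15 ± 0.11, limma adjusted p = 1.8e-08). Mt1a rose by 1.28 and the zinc importer Slc39a4 by 2.06, whereas Mt3, the form of neurons and astrocytes, lay at 0.0028. Metallothioneins are close copies, so the share of each is uncertain. For iron, Hmox1, which breaks down haem, ran from 579 to 762 in TBI rats, with a median of 666, and from 200.2 to 338 in sham-operated rats, with a median of 264 (log2 fold change 1.33 ± 0.11, limma adjusted p = 1.32e-06). The storage gene Fth1 rose by 0.60 and the exporter Slc40a1 was lower by 0.30, with an adjusted p from 0.0125 to 0.109 over the other settings. Of 19 antioxidant and NRF2 target genes 8 were higher and 3 lower: Slc7a11, the cystine importer (0.86), Gstp1 (0.66) and Nqo1 (0.49) rose, and Sod2 (-0.25) and Gsr (-0.24) fell.

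Of 24 p53 targets and apoptosis genes 6 were higher and 4 lower (6 and 2 with TMM). These are 25% and 16.7%, against 14.5% and 20.9% of all loci. Fas, a death receptor, ran from 58.2 to 112 in TBI rats, with a median of 105, and from 22.8 to 36.8 in sham-operated rats, with a median of 31.2 (log2 fold change 1.60 ± 0.18, limma adjusted p = 1.58e-05), and Casp8 rose by 0.75, while Bax (0.10) and Mdm2 (0.13) did not pass and Pmaip1 fell by 0.47. Of 23 cell cycle genes 5 were higher, or 21.7% against 14.5% of all loci, and 0 lower. Mcm3 (0.73) and Mcm6 (0.47) led them, and Mki67 (0.36) and Top2a (0.49) did not pass. Of 22 chaperones 8 were lower and 3 higher. Beside Hspb1, Hspb8 rose by 0.51, and Hspa12a, which is abundant in neurons and whose locus is joined to Eno4, fell by 0.71. Of 15 clock genes 8 were lower and 1 higher, Bhlhe41 (0.28): the nuclear receptors Rora and Rorb (-0.48) and the factor Hlf (-0.55) fell, while Per1 (-0.076), Per2 (-0.10) and Clock (-0.15) did not pass.

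The thalamic change differed from that in the perilesional cortex of the same rats at a limited set of genes. The difference of the TBI effects, tested as an interaction over all 24 libraries by limma, was called higher in the thalamus at 2.72% and lower at 4.54% of 15678 loci, 427 and 711 of them. With TMM scaling 569 were called higher and 505 lower, so the balance of directions depended on the scaling here too. Of 12 homeostatic microglia genes 7 had a higher change in the thalamus than in the cortex, of 36 lysosomal genes 11, of 17 inflammasome genes 7 and of 20 reactive astrocyte genes 6, with 0, 0, 0 and 1 the other way. P2ry12 rose by 1.09 in the thalamus and 0.34 in the cortex, a difference of 0.75 (adjusted p = 0.00557 by limma). Timp1 rose by 2.73 and 1.16 (adjusted p of the difference = 0.00147 by limma). Of 29 relay neuron genes 10 were lower against the cortex and 1 higher, and of 63 potassium channels 11 and 3. Syt2 changed by -1.90 in the thalamus and -0.58 in the cortex on the log2 scale (adjusted p of the difference = 0.00147 by limma). Spp1 (3.11 and 3.82), Gpnmb (3.34 and 2.68) and Fcrl2 (2.90 and 2.71) had changes whose difference did not pass (adjusted p = 0.305, 0.101 and 0.884 by limma).

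**Figure D5:**
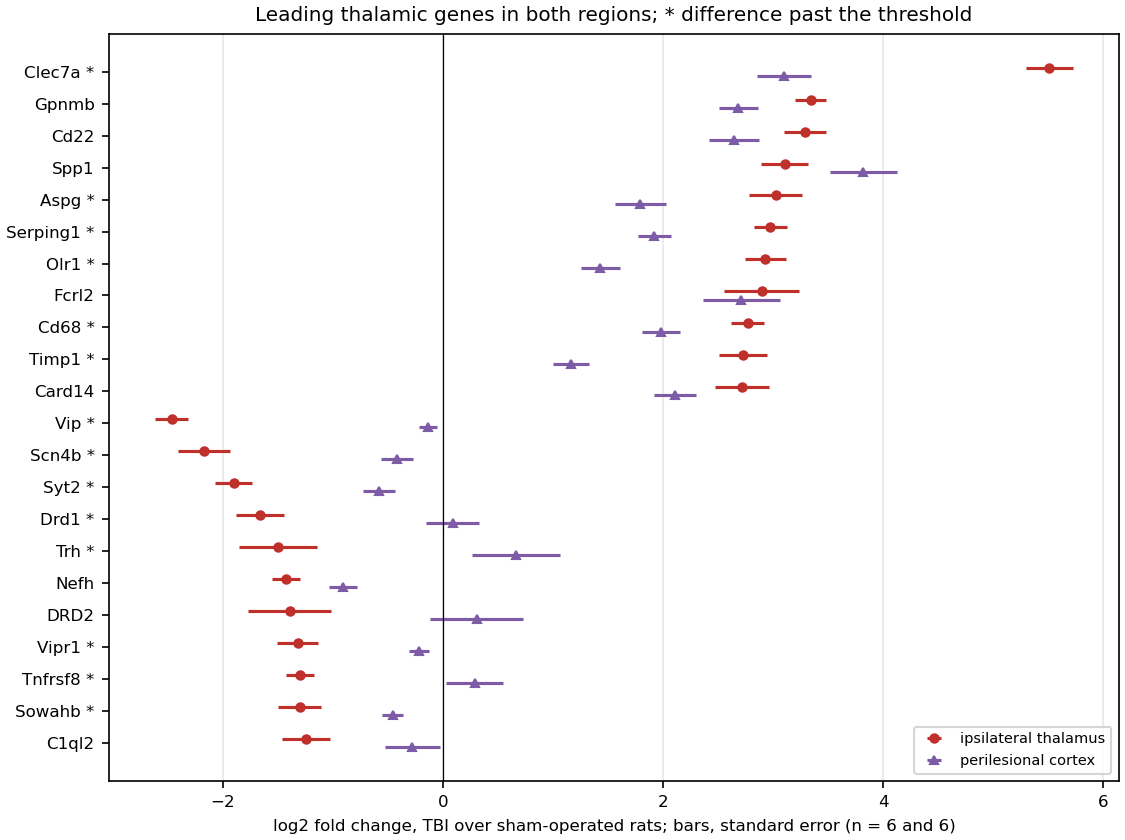
Log2 fold change with its standard error in the ipsilateral thalamus (circles) and the perilesional cortex (triangles), TBI over sham-operated rats (6 and 6), for the leading thalamic genes tested in both regions. An asterisk marks a difference between regions past the threshold, as at Clec7a (5.51 and 3.10) and Vip (-2.46 and -0.13), and the bars of both regions overlap at Fcrl2.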

How the data were processed

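Messenger RNA was sequenced in 2 regions, the thalamus of the injured side and the cortex next to the lesion, of 6 TBI and 6 sham-operated rats. Per the labels and the study's methods, the authors aligned fragments with TopHat2 2.0.11 and Bowtie2 2.2.2 and assembled loci with Cufflinks 2.2.1 on Ensembl Rnor_5.0 annotation. The labels give Rnor_5.0 as the build, but the study's methods name a different rat assembly as the reference genome. Which of them the positions follow was not tested. The deposited signal is the fragment count of each locus divided by a size factor per library (Cuffdiff). Whether positions count from 0 or 1 is not stated. The size factors were recovered from the lowest values, and at least 99.97% of values came out as whole fragments. Of 42334 loci, 15693 had no gene name and were left out; they held 1.90% to 2.07% of thalamus fragments.

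limma 3.58.1 with a trended prior was fitted in R 4.3.3 on log2(normalized count + 1) over the 12 thalamus libraries, at named loci with a mean of at least 10, calling genes at a Benjamini-Hochberg adjusted p under 0.05, 2-sided. Fold changes on this scale understate the change of low genes. The difference between regions was an interaction over 24 libraries. Both regions came from the same rats, and the deviations of paired libraries correlated at 0.0039 to 0.57 (10 of 12 rats over 0.1), so a fit with the rat as a block was also run. Alternatives were TMM and upper quartile scaling, other filters and pseudocounts, edgeR 4.0.16 and DESeq2 1.42.0 on the recovered fragments, all 24 libraries in 1 fit, and leaving out each library. Leaving out TBI rat 45 and sham rats 34 and 50 together was chosen after seeing the data. Scripts were tested on simulated data.

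The members and the 58 gene lists were chosen with earlier results of these data known. Named genes were the 12 largest rises and 12 largest falls with no overlap between groups, a mean of at least 100 in the higher group and a gene symbol other than a clone name; per list, up to 6 called members in each direction with a mean of at least 50, and any member against its list; and the markers of neighbouring structures. Some genes that the rule names are not reported here. Members given as not passing, low-count genes and genes under the filter were chosen after their values were seen. Each library is 1 rat, with RNA pooled from several pieces. The floor of 3 fragments covers counting error only.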

Additional observations from a re-analysis of the deposited data

Results flagged for a closer look

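Of 164 groups of 6 libraries examined, for the leading genes and the summed lists, 17 held 1 library set apart from the other 5 by Dixon's criterion, which chance alone gives in about 1 in 20 groups. TBI rat 45 accounted for 9 of the 17, sham rat 34 for 3, TBI rat 63 and sham rat 26 for 2 each and sham rat 32 for 1.

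TBI rat 45 was highest among TBI rats for Timp1, at 645 where the next rat had 392.4, and for the summed normalized counts of 8 lists. These were choroid plexus, at 283871 against 2345 in the next rat; collagens, at 43375 against 16121; perivascular macrophages, at 4445 against 2008; erythroid cells, at 9136 against 5291; class I processing, at 81961 against 68468; interferon-stimulated genes, at 32047 against 26450.0; metalloproteinases, at 58027 against 50584; and TGF-beta genes, at 34671 against 26660.

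Sham rat 34 was highest among sham-operated rats for Olr1, at 48.8 against 35.3, for collagens, at 20381 against 13491, and for perivascular macrophages, at 1914 against 1562. TBI rat 63 was highest for class II presentation, at 12042 against 7076, and for lymphocyte genes, at 4574 against 3509.7. Sham rat 26 was highest for DRD2, at 786 against 332, and for GABAergic and reticular genes, at 59531 against 46972. Sham rat 32 was highest for astrocyte transport genes, at 561499 against 527390.

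The TBI effect differed between thalamus and cortex, by the interaction in limma, at 15 of the 24 leading genes. The thalamic minus the cortical log2 fold change was 2.41 for Clec7a, 1.56 for Timp1, 1.4996 for Olr1, 1.23 for Aspg, 1.06 for Serping1 and 0.79 for Cd68. It was -2.33 for Vip, -2.16 for Trh, -1.75 for Scn4b, -1.75 for Drd1, -1.59 for Tnfrsf8, -1.32 for Syt2, -1.10 for Vipr1 and -0.84 for Sowahb. The cortex means of Trh were 19.1 in TBI and 10.1 in sham-operated rats, and those of Tnfrsf8 16.9 and 14.4. Both lay near the filter of 10, so their differences rest on low cortex counts. The value of -1.50 for Best3, the last of the 15, is no usable comparison, since its cortex means of 10.47 in TBI and 8.53 in sham-operated rats kept it under the filter on low values there. Acoxl, also under that filter, had an adjusted p of 0.0532 by limma and of 0.0376 with the rat as a block. These genes were chosen for their thalamic change, so a larger size in the thalamus is in part how they were picked. What sets the regions or the libraries apart was not tested.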

How the results depend on the processing

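Of 629 genes of the lists and leading genes called by limma, 506 were called under every alternative run and 123 were lost under at least 1, and none changed direction. TMM lost 43, upper quartile scaling 54, edgeR with TMM 48, DESeq2 17 of 628, and leaving out TBI rat 45 and sham rats 34 and 50 together 84. Of 469 list genes that limma did not call, 148 were called under at least 1 alternative. A gene given above as not passing is therefore one not called in the main fit. Over all loci, upper quartile scaling gave 2146 lower in place of 3257, and asking for a change of at least 1.5-fold left 907 higher and 423 lower. Leaving out single libraries gave 1852 to 2224 higher and 2668 to 3282 lower, and for the difference between regions 310 to 470 higher and 500 to 857 lower. With the rat as a replicate block the difference was called higher at 504 loci and lower at 797, in place of 427 and 711, and the block changed no count by over 1.5 times. Among the 24 leading genes it added Acoxl and lost none of the 15 differences. Of the 15 leading-gene differences 13 held under every alternative run, and Aspg and Cd68 each lost theirs when some single libraries were left out. Of 1740 list counts 91 moved by over 1.5 times. The cause of these shifts was not tested. At 6 rats a group, changes of rare transcripts such as T cell receptor chains were under the filter and were not tested.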
